A study of Mus musculus with 2 samples.

Results

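The genes described here are 32 genes of mitosis and the G2 phase, among them *Cdk1*, *Plk1*, *Aurkb*, *Kif11*, *Ndc80*, *Bub1* and *Mki67*. They were chosen by symbol from the 23628 genes listed for the mouse *Sox9*GFPHi chondrospheres, and all 32 were found and stood above 0 in both libraries. These genes and the other gene lists below were chosen with earlier results of these data known. Their counts beside those of all genes are therefore descriptions and not independent support. The chondrospheres are colonies that single cartilage cells form in methylcellulose in a low-oxygen chamber, in medium with FGF2, BMP4, IGF1, LIF and TGF-β1. The cells were taken from femoral heads of pups at postnatal day 7 that carry a *Sox9* IRES-EGFP reporter, which marks cells by the activity of the *Sox9* locus, and were sorted as live, negative for CD31, Ter119 and CD45, and high for GFP. RNA-sequencing gave 2 libraries of this 1 condition, replicate 1 and replicate 2, and although pups were harvested one by one as biological replicates, the labels do not say which pups or colonies went into each library. The study compared these chondrospheres with fibroblasts and pellet cultures from earlier published datasets, which were not analysed here. The comparison open to these genes is therefore that between the 2 libraries.

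Cells enter mitosis when CDK1, bound to cyclin A or cyclin B, becomes active at the end of G2. Polo-like and Aurora kinases then drive centrosome maturation, spindle assembly and chromosome alignment, kinetochores attach chromosomes to spindle microtubules, and the spindle checkpoint holds the anaphase-promoting complex (APC/C) back until every chromosome is attached. Most of these genes are transcribed in a wave that peaks in G2 and mitosis, so in a mixture of cells their RNA is a common readout of how many cells are dividing. In cartilage such cells are known from the proliferating zone of the growth plate and from growing articular cartilage. In bulk RNA, fewer dividing cells and less RNA of these genes per dividing cell cannot be told apart.

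The transcription of these genes is known to run through short promoter motifs: CCAAT boxes, which bind NF-Y, and the cell cycle homology region (CHR), with the letters TTTGAA or TTTAAA, which binds the DREAM complex in resting cells and MYB-containing complexes with FOXM1 in G2. Promoter windows of 300 bases, from 250 before to 50 after the RefSeq start on GRCm38.p6, were found for 28 of the 32 genes, all but *Ccna2*, *Aurkb*, *Tpx2* and *Kif20a*. Shown 5′ to 3′ on the strand of the gene are CDK1 and its B cyclin partners, the kinase *Plk1*, and the genes with the largest (*Cenpe*) and the smallest (*Mad2l1*) log2 difference between the libraries at a pseudocount of 0.1 CPM. They lie at chr10:69352863-69353162 (*Cdk1*, minus strand), chr9:70421505-70421804 (*Ccnb2*, minus strand), chr13:100786437-100786736 (*Ccnb1*, minus strand), chr7:122159185-122159484 (*Plk1*, plus strand), chr3:135212313-135212612 (*Cenpe*, plus strand) and chr6:66534971-66535270 (*Mad2l1*, plus strand). Capitals mark CCAAT and the CHR letters on either strand, so that ATTGG is CCAAT read on the other strand.
Cdk1: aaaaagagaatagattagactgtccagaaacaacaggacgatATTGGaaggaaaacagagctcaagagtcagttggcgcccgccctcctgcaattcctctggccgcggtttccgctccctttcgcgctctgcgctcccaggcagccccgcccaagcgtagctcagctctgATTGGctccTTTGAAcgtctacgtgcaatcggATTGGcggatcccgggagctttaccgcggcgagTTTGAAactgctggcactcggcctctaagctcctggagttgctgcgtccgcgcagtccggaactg
Ccnb2: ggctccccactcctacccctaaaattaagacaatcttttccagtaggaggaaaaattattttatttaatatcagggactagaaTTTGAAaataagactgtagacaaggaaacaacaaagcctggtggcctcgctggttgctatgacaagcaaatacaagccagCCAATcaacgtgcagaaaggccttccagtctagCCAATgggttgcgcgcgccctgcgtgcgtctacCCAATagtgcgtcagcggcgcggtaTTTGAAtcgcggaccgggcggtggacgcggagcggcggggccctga
Ccnb1: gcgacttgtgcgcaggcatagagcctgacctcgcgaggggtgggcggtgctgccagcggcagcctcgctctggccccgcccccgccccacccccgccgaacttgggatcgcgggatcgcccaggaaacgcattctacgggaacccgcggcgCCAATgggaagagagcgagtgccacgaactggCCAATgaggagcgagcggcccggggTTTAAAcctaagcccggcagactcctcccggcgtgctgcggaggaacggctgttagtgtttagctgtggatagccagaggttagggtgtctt
Plk1: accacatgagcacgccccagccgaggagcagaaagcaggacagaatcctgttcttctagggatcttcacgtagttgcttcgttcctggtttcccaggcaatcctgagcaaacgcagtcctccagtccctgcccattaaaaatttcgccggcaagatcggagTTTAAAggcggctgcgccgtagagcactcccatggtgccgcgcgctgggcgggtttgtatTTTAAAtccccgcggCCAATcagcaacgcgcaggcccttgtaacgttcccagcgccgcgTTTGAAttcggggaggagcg
Cenpe: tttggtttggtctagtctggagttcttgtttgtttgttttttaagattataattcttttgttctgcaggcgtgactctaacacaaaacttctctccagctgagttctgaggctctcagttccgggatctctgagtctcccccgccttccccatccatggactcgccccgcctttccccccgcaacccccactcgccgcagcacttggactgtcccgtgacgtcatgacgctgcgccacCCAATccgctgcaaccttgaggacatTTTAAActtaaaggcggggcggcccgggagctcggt
Mad2l1: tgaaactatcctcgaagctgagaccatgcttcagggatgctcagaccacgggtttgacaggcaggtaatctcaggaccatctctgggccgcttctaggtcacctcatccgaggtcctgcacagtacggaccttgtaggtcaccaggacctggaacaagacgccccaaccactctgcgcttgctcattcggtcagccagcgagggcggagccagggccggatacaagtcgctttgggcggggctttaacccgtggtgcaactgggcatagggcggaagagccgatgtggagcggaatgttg

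*Cdk1* and *Ccnb2* each held 3 CCAAT matches and 2 of TTTGAA, and *Ccnb1* held 2 of CCAAT and 1 of TTTAAA. In *Ccnb1* the CCAAT matches lay 32 bases apart, and in *Ccnb2* the 3 matches lay 33 and 33 bases apart. *Plk1* held 1 CCAAT, 1 TTTGAA and 2 TTTAAA, *Cenpe* held 1 CCAAT and 1 TTTAAA, and *Mad2l1* held none of these letters in its window. That window ends before the *Mad2l1* start in GENCODE M21 (66535390), so the letters around that start were not searched. The other windows shown contain their GENCODE start. Of the 28 genes, 21 (75%) held CCAAT, against 41.1% of 27025 genes with windows of the same length, a gene with more than 1 window being counted once. TTTGAA was also in 21 (75%, against 20.2% of all genes) and TTTAAA in 9 (32.1%, against 14.9%). Either CHR form stood in 24 of 28 (85.7%, against 30.6% of all genes), and in 21 it lay within 50 bases of the start (75%, against 9.54%). CCAAT together with a CHR was found in 20 of 28 (71.4%) and in 12.2% of all genes.

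Among the 15 members with more than 1 CCAAT, 7 had neighbours 31 to 33 bases apart, first base to first base (46.7%), against 8.01% of the 3585 genes of the genome with more than 1. This spacing was chosen for counting after the sequences had been seen. The median GC content was 59% in the members and 53.3% in all genes. A match is a description of letters and not a bound site, and no match says only that the letters are not in the window. *Nusap1* and *Nuf2* held none of the letters either, and *Bub1* held CCAAT but no CHR.

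**Figure D1:**
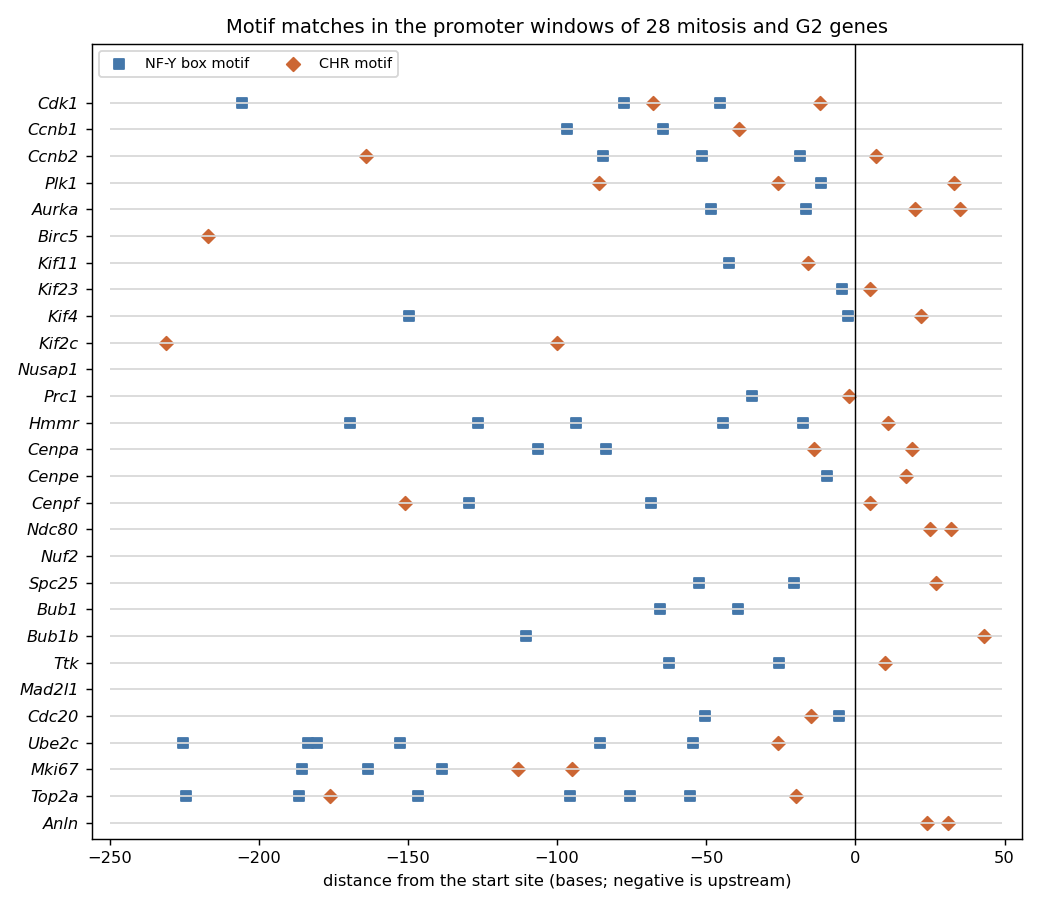
Positions of CCAAT matches (squares, the NF-Y box) and CHR matches (diamonds) in the promoter windows of 28 mitosis and G2 genes, each row a gene, against the distance from the RefSeq start in bases. Every CCAAT match shown lies upstream of the start, 21 of 28 genes have a CHR match within 50 bases of it, and *Nusap1*, *Nuf2* and *Mad2l1* have no match.

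All 32 genes were higher in replicate 2 than in replicate 1. The ratio of replicate 2 to replicate 1 ran from 2.10-fold for *Mad2l1* to 8.83-fold for *Ttk*, with a median of 4.89-fold. In counts-per-million (CPM), the 32 genes together took 102 in replicate 1 and 500 in replicate 2, or 301 ± 281 CPM (SD, n = 2). These sums are 0.01024% and 0.05003% of the respective library. In replicate 1 no member reached 10 CPM and 29 reached 1 CPM, whereas in replicate 2 all 32 reached 1 CPM and 21 reached 10 CPM.

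The median gene was itself higher in replicate 2, by 0.30 on the log2 scale over the 12631 genes whose mean reached 1 CPM, and differences are given below relative to it. Relative to that median gene, 31 of the 32 members were more than 2-fold higher in replicate 2, against 7.43% of all genes tested, and none was more than 2-fold lower, against 6.06%. The exception was *Mad2l1*, at 1.69-fold. More than 4-fold higher were 15 of 32, against 2.51% of all genes. On the CPM as deposited, all 32 were more than 2-fold higher, against 11.4%. The median member was 1.95 above the median gene on the log2 scale of CPM plus 0.1, and 2.63% of genes lay above it. The members lay closer together than genes in general, with an SD of 0.40 for their log2 differences against 0.83 over all genes. Of the lists described below, this SD was 0.46 in the S phase genes, 0.22 in the APC/C subunits and 0.83 in the further mitosis and G2 genes. A small SD is thus not particular to the members.

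From the deposited steps of CPM, the members had an estimated 4432 reads in replicate 1 and 21089 in replicate 2. Counting error alone gave an SD of the log2 ratio between 0.078 and 0.39 per member, with a median of 0.15, which is below every member's difference. It does not cover the variation between cultures, and 1 library stands on each side, so no p-value was computed. For 13 members, among them *Ccnb1*, *Plk1* and *Cdc20*, at least 1 value was not a whole number of reads, and the counting used can divide reads between genes of shared sequence.

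**Figure D2:**
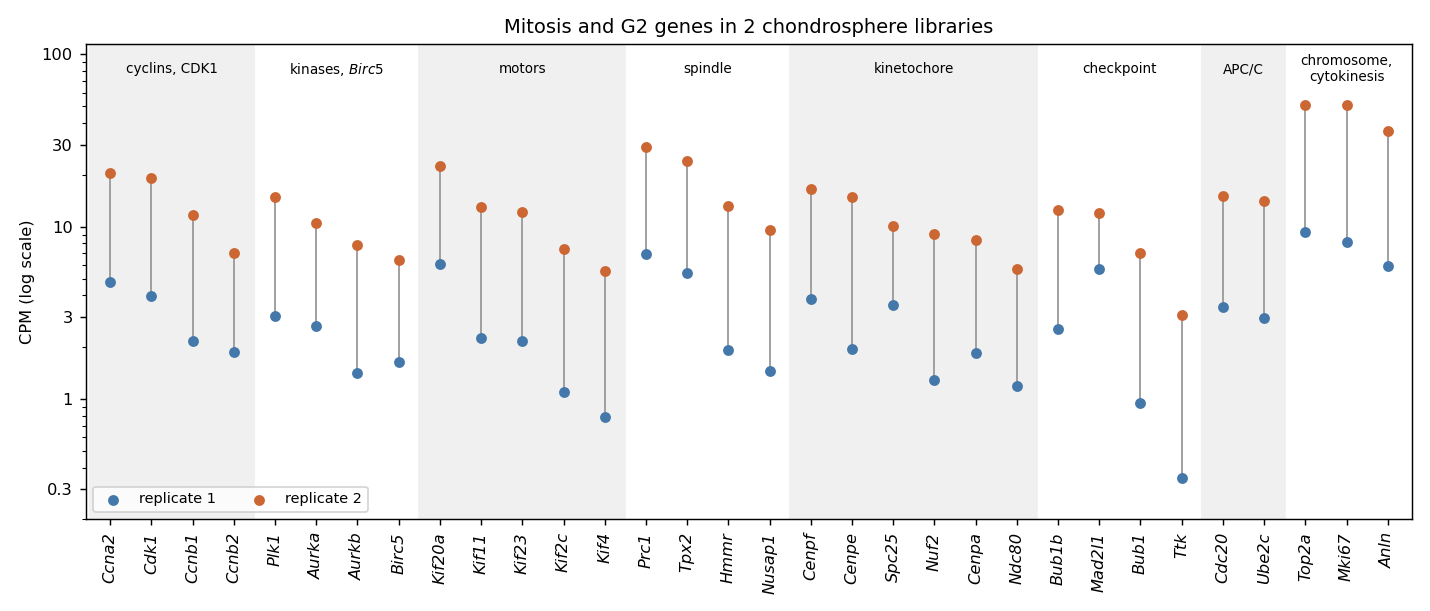
Level of each of the 32 genes in replicate 1 (blue) and replicate 2 (orange), in CPM on a log axis, grouped by role and joined by a line per gene. Every gene is higher in replicate 2, with *Ttk* lowest at 0.347 and 3.06 CPM and *Top2a* highest at 9.31 and 50.8 CPM.

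**Figure D3:**
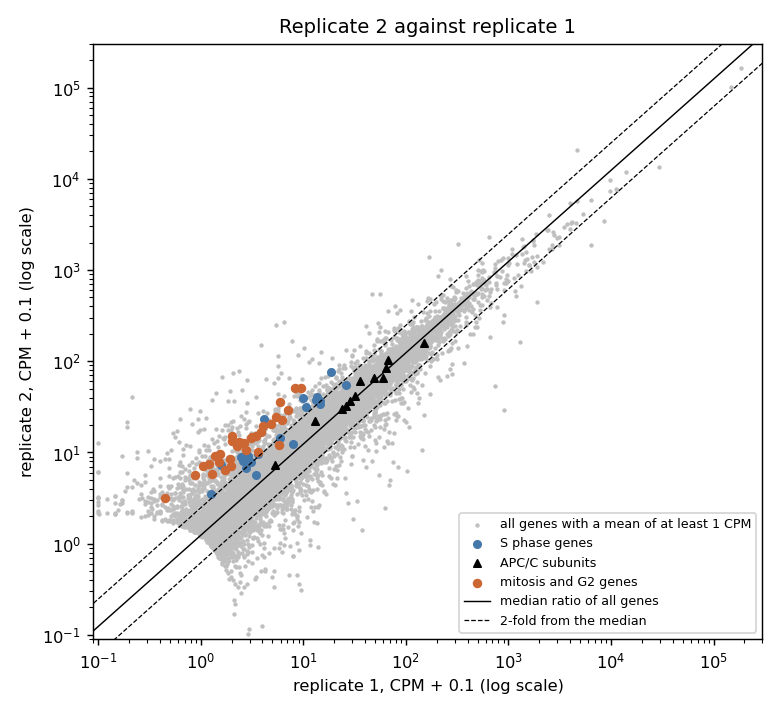
CPM plus 0.1 in replicate 2 against replicate 1, both on log axes, for 12631 genes (grey), the 32 mitosis and G2 genes (orange), 20 S phase genes (blue) and 12 APC/C subunits (black triangles). The solid line is the median ratio of all genes and the dashed lines lie 2-fold from it. Above the upper dashed line lie 31 of the 32 orange points and no triangle, against 7.43% of all genes.

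Cyclins A2, B1 and B2 and their kinase CDK1 were all more than 2-fold higher in replicate 2 relative to the median gene. Their CPM summed to 12.8 in replicate 1 and to 58.5 in replicate 2. *Cdk1*, the kinase that starts mitosis, lies on chromosome 10 (69335146 to 69352938, minus strand) and was at 3.97 and 19.2 CPM, a 4.84-fold ratio. *Ccna2*, the cyclin that works in S phase and G2, was at 4.78 and 20.6 CPM (4.30-fold). The B cyclins activate CDK1 at the entry into mitosis, and of these *Ccnb1* (chromosome 13, 100778650 to 100786570, minus strand) was at 2.17 and 11.6 CPM (5.36-fold). *Ccnb2* (chromosome 9, 70407692 to 70421547, minus strand) was at 1.87 and 7.05 CPM (3.76-fold). The 4 genes thus lay between 1.55 and 2.07 above the median gene on the log2 scale.

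The kinases *Plk1*, *Aurka* and *Aurkb* and their partner *Birc5* were likewise higher in replicate 2, the 4 genes with sums of 8.74 and 39.5 CPM. *Plk1*, the polo-like kinase of centrosome maturation and mitotic entry, on chromosome 7 (122159439 to 122169873, plus strand), was at 3.04 and 14.8 CPM (4.87-fold). *Aurka*, the Aurora kinase of the spindle poles, was at 2.66 and 10.5 CPM (3.95-fold). *Aurkb* and *Birc5* belong to the chromosomal passenger complex, which corrects wrong attachments at the centromere, *Aurkb* as its kinase and *Birc5* (survivin) as a targeting subunit. *Aurkb* stood at 1.41 and 7.85 CPM (5.57-fold), and *Birc5* at 1.64 and 6.40 CPM (3.90-fold). The remaining subunits of that complex, *Incenp* (5.38 and 17.1 CPM) and *Cdca8* (2.80 and 7.31 CPM), named here after their values were seen, were also higher in replicate 2.

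Of the 5 spindle motors, 4 were more than 4-fold above the median gene, and the 5 summed to 12.4 and 60.6 CPM. *Kif11*, the kinesin that pushes spindle poles apart, was at 2.26 and 13.0 CPM (5.76-fold). *Kif23*, a kinesin of the central spindle needed for cytokinesis, was at 2.17 and 12.2 CPM (5.60-fold). *Kif4*, a chromosome-bound kinesin that works with *Prc1* in the midzone, was at 0.787 and 5.56 CPM (7.07-fold). *Kif2c*, which takes microtubules apart at centromeres, was at 1.09 and 7.44 CPM (6.81-fold). The smallest ratio of the motors was that of *Kif20a*, which carries passenger proteins to the midzone, with 6.08 and 22.4 CPM (3.68-fold).

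The spindle-associated proteins summed to 15.7 and 75.9 CPM. *Tpx2*, which activates Aurora A and nucleates microtubules, was at 5.36 and 24.2 CPM (4.52-fold). *Prc1*, which bundles the microtubules of the midzone, was at 6.95 and 28.9 CPM (4.16-fold). *Nusap1*, a microtubule-binding protein of the spindle, was at 1.45 and 9.55 CPM (6.58-fold), and *Hmmr*, a spindle protein that also binds hyaluronan, was at 1.92 and 13.3 CPM (6.92-fold). *Nusap1* and *Hmmr* were more than 4-fold above the median gene, at 2.33 and 2.42 on the log2 scale.

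The centromere and kinetochore genes, 6 in number, summed to 13.6 and 64.7 CPM. *Cenpe*, the kinetochore motor that brings chromosomes to the spindle equator, on chromosome 3 (135212537 to 135273611, plus strand), was at 1.94 and 14.9 CPM, a 7.66-fold ratio, and lay 2.57 above the median gene on the log2 scale of CPM plus 0.1, where it stood first of the 32 with *Ttk* next at 2.52. Without the pseudocount *Ttk* had the larger ratio. *Cenpf*, a large protein of the outer kinetochore, was at 3.81 and 16.6 CPM (4.36-fold), and *Cenpa*, the histone H3 variant of centromeres, was at 1.85 and 8.37 CPM (4.53-fold). *Ndc80*, *Nuf2* and *Spc25* are subunits of the complex that grips microtubules, and *Spc25* had the lowest ratio of these. *Nuf2* was at 1.29 and 9.04 CPM (6.99-fold), *Ndc80* at 1.19 and 5.71 CPM (4.80-fold) and *Spc25* at 3.49 and 10.1 CPM (2.90-fold). On the log2 scale *Nuf2* and *Ndc80* lay 2.41 and 1.87 above the median gene, with counting SDs of 0.21 and 0.22. Whether *Nuf2* and *Ndc80* differ was not tested. The fourth subunit of this complex, *Spc24*, was at 0.670 and 3.32 CPM, and the kinetochore scaffold *Knl1* at 0.716 and 4.51 CPM. Both were named after their values were seen.

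The spindle checkpoint held both the highest and the lowest ratio of the 32 genes. *Ttk*, the kinase that starts checkpoint signalling, on chromosome 9 (83834689 to 83872389, plus strand), was at 0.347 CPM from about 15 reads in replicate 1 and at 3.06 CPM from about 129 reads in replicate 2 (8.83-fold). *Bub1*, the kinase that recruits checkpoint proteins, was at 0.947 and 7.07 CPM (7.46-fold), and *Bub1b* (BubR1), part of the inhibitor of the APC/C, was at 2.54 and 12.5 CPM (4.91-fold). *Mad2l1*, the MAD2 protein that binds CDC20 in the same inhibitor, on chromosome 6 (66535390 to 66547220, plus strand), was at 5.68 and 11.9 CPM, or 0.75 above the median gene on the log2 scale. Of all genes tested, 10.5% lay above *Mad2l1*, which put it and *Spc25* outside the highest 5% that held the other 30 members. Just inside that limit stood *Ccnb2* and *Kif20a*, with 3.94% and 3.93% of genes above them, and 5.81% lay above *Spc25*.

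*Cdc20* and *Ube2c*, an activator and the E2 enzyme of the APC/C, were at 3.40 and 15.1 CPM (4.44-fold) and at 2.97 and 14.1 CPM (4.77-fold). Their differences from the median gene, 1.81 and 1.91, were the closest of any role group. The subunits of the APC/C itself lay nearer the median gene. Of 12 genes in that list, which includes the activator *Fzr1*, none was more than 2-fold higher or lower relative to the median gene. Of all genes tested, 7.43% were higher and 6.06% lower by that rule, so most genes also stayed within it. The median of the 12 was 0.10 on the log2 scale, and their sums were 554 and 705 CPM. The highest by mean CPM were *Anapc5* (151 and 157 CPM), *Anapc1* (66.4 and 103 CPM) and *Cdc16* (64.5 and 84.8 CPM). *Fzr1*, the activator that works after mitosis and in G1, had the largest upward difference of that list, at 13.0 and 22.1 CPM (0.46), next to *Cdc27* at 35.5 and 60.0 CPM (0.45). The lowest of that list was *Anapc5* (−0.24), next to *Anapc2*, the cullin-like subunit of the APC/C, at 60.2 and 65.8 CPM (−0.18). *Anapc13* (−0.36), *Anapc15* (0.17) and *Anapc16* (−0.16) are not in that list, and they too stayed within 2-fold of the median gene.

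The 3 genes of chromosomes and cytokinesis were all more than 4-fold above the median gene, with sums of 23.3 and 137 CPM. *Mki67*, which coats mitotic chromosomes and is the antigen of the Ki-67 stain, was at 8.13 and 50.8 CPM (6.24-fold). *Top2a*, the topoisomerase that untangles sister chromatids, was at 9.31 and 50.8 CPM (5.46-fold). *Anln* (anillin), a scaffold of the contractile ring, was at 5.89 and 35.7 CPM (6.06-fold).

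The medians of the 8 role groups lay between 1.79 (the kinases with *Birc5*) and 2.27 (chromosomes and cytokinesis) above the median gene. With 1 library on each side and 2 to 6 genes in a group, their order was not tested.

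Further mitotic genes and S phase genes were mostly higher in replicate 2 as well. Of 68 further mitosis and G2 genes, 65 reached a mean of 1 CPM. Of these, 44 were more than 2-fold higher relative to the median gene, against 7.43% of all genes tested. None was more than 2-fold lower, against 6.06%, and the median was 1.33. Some of the 65, among them *Ska1* and *Ncapg*, reached a mean of 1 CPM only through replicate 2. The genes of that list with the highest mean CPM were *Ube2s* (63.7 and 96.2 CPM), the chain-elongating E2 of the APC/C, *Zwint* (42.0 and 74.7 CPM), a kinetochore protein, and *Hjurp* (47.9 and 66.0 CPM), the chaperone of CENP-A. The largest differences were those of *Ska1*, a kinetochore protein with about 2 reads in replicate 1 and 84 in replicate 2 (43.1-fold, 95% counting interval 11.6 to 362), and *Ncapg*, a condensin subunit at 0.503 and 5.47 CPM (10.9-fold). *Pttg1* (securin) went the other way at 9.80 and 7.24 CPM (−0.74 relative to the median gene), as did *Zw10* at 24.1 and 21.5 CPM (−0.47).

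Of 21 S phase genes, 20 reached a mean of 1 CPM. More than 2-fold higher relative to the median gene were 15 of these, against 7.43% of all genes tested. None was more than 2-fold lower, against 6.06%, and their median was 1.20. *Mcm6*, a subunit of the replicative helicase, was at 18.6 and 75.9 CPM (1.72 relative to the median gene), and *Mcm5* of the same helicase was at 3.997 and 23.01 CPM (2.19). *Pcna*, the sliding clamp, stood at 26.0 and 54.3 CPM (0.75), *Rrm1* of ribonucleotide reductase at 13.5 and 40.9 CPM (1.29), and *Tk1*, a thymidine kinase, at 1.47 and 7.17 CPM (1.91). The smallest differences were those of *Gins2*, at 7.80 and 12.2 CPM (0.34), and *Prim1*, at 3.37 and 5.60 CPM (0.41). Of 16 S phase genes with promoter windows, 11 held CCAAT (68.8%, against 41.1% of all genes). A CHR was in 6 of the 16 (37.5%), near the 30.6% of all genes. A CHR was found in 38 of 56 further mitotic genes (67.9%) and in 1 of 11 APC/C genes (9.09%).

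Among 18 regulators of mitotic transcription that reached a mean of 1 CPM, the median was 0.34. Of the 18, 4 were more than 2-fold higher relative to the median gene, against 7.43% of all genes tested. These 4 were *Foxm1*, the forkhead activator of G2 genes, at 3.30 and 16.2 CPM (1.96), the repressors *E2f8* at 1.20 and 8.16 CPM (2.36) and *E2f7* at 0.601 and 2.82 CPM (1.76), and *Lin9* of the MuvB core at 1.29 and 4.93 CPM (1.55). *Mybl2* was at 2.38 and 5.73 CPM (0.93) and *E2f1* at 12.0 and 28.6 CPM (0.94). *E2f7* reached a mean of 1 CPM only through replicate 2. *E2f7*, *Lin9*, *Mybl2* and *E2f1* were named after their values were seen. The regulators with the most CPM, which are not levels per length, were *Tfdp1* (48.6 and 71.2 CPM), *E2f4* (25.5 and 38.3 CPM) and *Rbl2* (28.46 and 33.02 CPM), and they stayed near the median gene, at 0.25, 0.28 and −0.09. *Lin37*, at 7.85 and 7.75 CPM (−0.32), and *Lin52*, at 6.35 and 7.26 CPM (−0.11), lay below it.

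**Figure D4:**
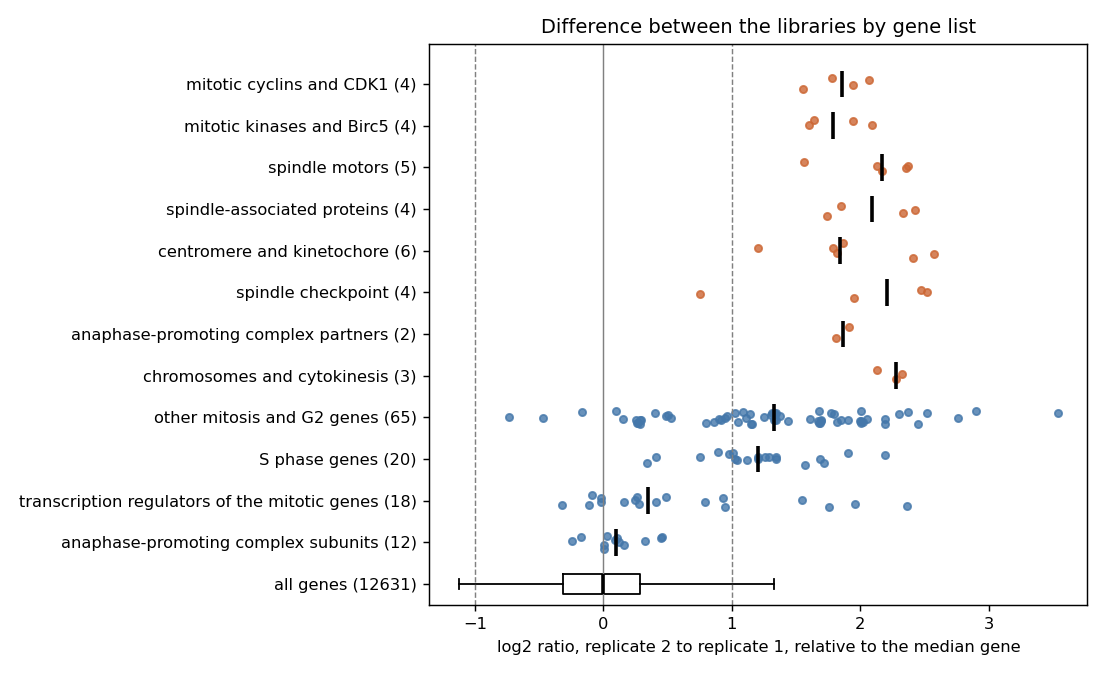
Log2 ratio of replicate 2 to replicate 1 relative to the median gene, for each gene (points) of the 8 role groups (orange) and of 4 other lists (blue), with the number of genes in brackets and the median as a black bar. The box shows the quartiles of all 12631 genes with whiskers at the 5th and 95th percentiles; the role groups have medians from 1.79 to 2.27, the S phase genes 1.20 and the APC/C subunits 0.10.

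Levels of different genes can be set side by side only per length, here per kb of exon in GENCODE M21 (CPM per kb). The highest was *Cdc20*, with a mean of 4.95 CPM per kb (1.82 and 8.08), followed by *Plk1* (4.05) and *Top2a* (3.34), and the lowest were *Ttk* (0.346), *Ndc80* (0.531) and *Kif4* (0.576). The order was much the same in both libraries, with a Spearman correlation of 0.910 across the 32 genes, which share their libraries and are not independent. Of 14 pairs of partners, 12 had a mean log2 ratio per length larger than its SD over the 2 libraries. The widest were *Spc25* over *Ndc80* at 2.22 ± 0.51, *Prc1* over *Kif4* at 2.18 ± 0.54 and *Kif20a* over *Kif23* at 2.05 ± 0.43 (SD, n = 2). *Bub1b* lay above *Bub1* by 1.15 ± 0.43, and *Aurkb* below *Aurka* at −0.89 ± 0.35. *Mad2l1* and *Bub1b* exchanged their order between the libraries, with a log2 ratio of 0.19 in replicate 1 and −1.04 in replicate 2, so that their mean of −0.42 ± 0.87 is within the spread. *Birc5* and *Aurkb* were not separated either (−0.25 ± 0.36). The direction of the pairs *Ccnb1* to *Ccnb2*, *Ccnb1* to *Cdk1*, *Tpx2* to *Aurka* and *Mad2l1* to *Bub1b* depended on the length used.

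The labelled cell type was borne out by its defining genes, with *Sox9* at 252 and 279 CPM, *Col2a1* at 148953 and 100682 CPM and *Acan* at 14170 and 12002 CPM. The log2 ratio of the summed mitotic genes to *Sox9* was −1.30 in replicate 1 and 0.84 in replicate 2. Of the 8 chondrocyte markers 7 had a log2 ratio of replicate 2 to replicate 1 below that of the median gene. The same held for 6315 of the 12631 genes tested. Of the 8, 2 were more than 2-fold lower, against 6.06% of all genes tested. *Matn3*, named after its value was seen, was at 741 and 53.1 CPM. The 10 highest genes took 43.4% of replicate 1 and 34.7% of replicate 2. Of 7 osteoblast markers, 5 reached a mean of 1 CPM. Of these, 3 were more than 2-fold higher in replicate 2 relative to the median gene, against 7.43% of all genes tested. None was more than 2-fold lower, against 6.06%. *Dmp1* and *Alpl* (0.462 and 1.92 CPM) reached a mean of 1 CPM only through replicate 2, so the filter itself favoured them in this count. The 7 summed to 6.38 and 55.0 CPM, most of the second value from *Dmp1* (0.116 and 40.4 CPM). *Sp7*, named as the defining marker of this list, was at 1.96 and 6.81 CPM. *Bglap2* (1.19 and 1.55 CPM) and *Ibsp* (2.24 and 3.27 CPM) lay 0.049 and 0.22 above the median gene on the log2 scale. Both were named after their values were seen. None of the 7 was at 0. The part of these differences in the result was not tested.

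Markers of the lineages removed in the sort were low in both libraries. The 7 leukocyte markers listed summed to 2.63 and 2.67 CPM, nearly all from *Cd68* (2.56 and 2.40 CPM), with *Ptprc* (CD45) at about 1 and 2 reads and *Adgre1*, *Itgam* and *Tyrobp* at 0 in both libraries. Of 6 endothelial markers only *Pecam1* (CD31) was above 0, at 0.231 and 0.166 CPM. The 6 erythroid markers summed to 0.093 and 0.120 CPM, with *Hba-a1* at 0.092 and 0 CPM and *Hbb-bs* at 0 and 0.071 CPM. A value of 0 means that no read was assigned, which does not show that the RNA was absent. As a floor 3 reads were taken, or 0.0693 and 0.0712 CPM in the respective library. The 8 fibroblast markers summed to 5377 and 3945 CPM, mainly from collagen genes such as *Col1a2* (2714 and 2620 CPM) that chondrocytes can express too. *Pdgfra* was at 2.03 and 2.71 CPM, *Thy1* at 0.208 and 0 CPM, and *Pi16* was at 0 in both libraries.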

How the data were processed

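RNA-sequencing libraries of *Sox9*GFPHi chondrospheres (1 group, n = 2) were analysed from the deposited counts-per-million (CPM) values. The authors aligned reads to GRCm38 with STAR 2.7.3a, counted them by gene with Partek E/M, in which reads of shared sequence can be split between genes, and scaled them to CPM in Partek Flow 10.0.21.0801. An offset of 0.0001 CPM on every value was subtracted. One read was worth 0.0231 CPM (replicate 1) and 0.0237 CPM (replicate 2), which with 3 reads as a floor gives 0.0693 and 0.0712 CPM and total depths of 43280582 and 42150700 reads on genes. With these steps 71.8% and 71.4% of values under 0.5 CPM came out within 0.1 of a whole read, as did both values of 19 of the 32 members, so read numbers are estimates and no count model was fitted.

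Log2 ratios between libraries used a pseudocount of 0.1 CPM, which understates the ratio of low genes, and were centred on the median of the 12631 genes whose mean reached 1 CPM. A mean over both libraries also admits genes that are high in only 1 of them. With 1 library on each side no test or p-value was computed. A counting interval covers counting error only. Per the methods each pup was a separate biological replicate, but the labels do not tie the libraries to pups or cultures.

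The members and all gene lists were chosen with earlier results of these data known. Named are all members and, per other list, the 3 genes with the highest mean and the 2 with the largest ratio in each direction, each list's highest marker and the defining markers. Exonic lengths and gene positions came from GENCODE M21 and promoters from RefSeq, both on GRCm38. Scaling, pseudocount, filter and length were varied. A planned count of KEN motifs in proteins was not run. The computation was tested on simulated data. Software was scipy 1.17.1, pandas 2.3.3, numpy 2.4.6 and matplotlib 3.10.9 under Python 3.11.15.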

Additional observations from a re-analysis of the deposited data

How the results depend on the processing

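Of 152 recomputed values, 129 stayed within a limit that differed with the value. It was 0.59 for medians of log2 ratios, the SD of log2 ratios over all genes scaled to 1 library. For pair ratios and the summed level it was their SD over the 2 libraries, and for counts a fixed fold. With 2 libraries, leaving 1 out moves a mean by less than that SD by construction, so these values do not test stability. Another 20 passed the limit, and 3 changed the sign of a ratio whose mean exceeded its SD. Among the others the sign changed in 3 values, all of ratios whose mean was within its SD: *Mad2l1* to *Bub1b* without division by length (0.55) and without replicate 2 (0.19), and *Birc5* to *Aurkb* without replicate 2 (0.011). All 82 medians of log2 ratios between the libraries stayed above 0. That of the 32 genes ran from 1.65 to 2.25 and those of the role groups from 1.48 to 2.58, and the count of members past 2-fold was 31 or 32. With a pseudocount of 1 CPM the median of the spindle checkpoint genes was 1.48, a pseudocount that exceeds the level of *Ttk* and *Bub1* in replicate 1. The summed level of the 32 genes was 102 CPM without replicate 2 and 500 CPM without replicate 1.

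The ratios between members rest on the length used. Without division by length the log2 ratio was 0.47 for *Ccnb1* to *Ccnb2*, −0.80 for *Ccnb1* to *Cdk1*, 0.18 for *Ccna2* to *Cdk1*, 1.19 for *Spc25* to *Ndc80*, 0.55 for *Mad2l1* to *Bub1b*, −0.14 for *Ube2c* to *Cdc20*, 1.11 for *Tpx2* to *Aurka*, 1.18 for *Kif20a* to *Kif23*, 2.76 for *Prc1* to *Kif4* and 0.098 for *Top2a* to *Mki67*. With the longest coding transcript it was −0.23 for *Ccnb1* to *Ccnb2*, 0.015 for *Ccnb1* to *Cdk1*, 0.74 for *Ccna2* to *Cdk1*, −0.81 for *Birc5* to *Aurkb*, 1.07 for *Nuf2* to *Ndc80*, −0.43 for *Ube2c* to *Cdc20*, −0.086 for *Tpx2* to *Aurka*, 1.07 for *Kif20a* to *Kif23*, 3.48 for *Prc1* to *Kif4* and 1.04 for *Top2a* to *Mki67*. Of the 10 genes highest per exonic length, 6 stayed among the 10 highest under either choice. The scaling to *Sox9* and the restriction to members with whole reads were chosen after seeing the data. No paired analysis was possible because the series has 1 group. Depth limits *Ttk* most, with about 15 reads in replicate 1.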
